A study of Mus musculus with 14 samples.

Results

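The major histocompatibility complex (MHC) class II genes examined here are H2-Aa, H2-Ab1, H2-Eb1, H2-DMa, H2-DMb1, Cd74 and Ciita, and all 7 are among the 23282 genes of the count table. They were chosen by name, as chains of the class II molecules, their chaperones and their transcriptional coactivator. The rule used no measured value, but earlier results of these data were known, and 6 of the 7 are on the study's own list of genes higher in WD. Messenger RNA of epididymal white adipose tissue (eWAT), the fat pad beside the epididymis, was sequenced from male C57BL/6J wild type mice after 20 weeks of a normal diet (control) or a Western diet (WD). The labels give 3 groups, namely 4 controls of batch 1 (control replicates 1 to 4), 5 WD mice of batch 1 (WD replicates 1 to 5) and 5 controls of batch 2 (control replicates 5 to 9). No mouse carried a transgene or a deletion, and diet and batch were the labelled differences. Because every WD mouse belonged to batch 1, diet and batch cannot be told apart where WD is set against the batch 2 controls.

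Class II molecules present peptides from engulfed material to CD4+ T cells. They are made mainly by macrophages, dendritic cells and B cells, and eWAT of obese mice is known for its macrophages. An alpha and a beta chain assemble with the invariant chain, lysosomal proteases trim the invariant chain to a short stub in the groove, and the DM molecule exchanges the stub for a peptide. CIITA is recruited by factors bound to paired boxes upstream of these genes and switches their transcription on.

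Total counts were 10278970 to 13712254 per library. The 3′ protocol reads each transcript near its poly(A) end, so counts were not divided by gene length, and levels are given as CPM, the counts scaled to a common library size, after TMM normalization. In such bulk tissue, more cells of a type and more RNA per cell cannot be told apart. A pair of batch 1 controls stood apart from the rest. Control replicate 1 held 607011 counts of 9 epididymis genes against 0 to 281 in the other 13 libraries, and adipocyte genes made up 0.401% of its counts against 1.58% to 5.64% elsewhere. Control replicate 4 had 7999 detected genes against 10903 to 13780 elsewhere, and its macrophage marker genes summed to 17952 counts, within the WD range of 14420 to 24732. The fold changes that rest on these libraries are also given without them below.

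The class II promoter module is a series of X boxes followed by a Y box, and the promoters of the chain genes H2-Aa and H2-Eb1 are shown. RefSeq windows on GRCm38.p6 were at hand for 4 of the 7 members, and not for H2-Ab1, Cd74 or Ciita. Capitals mark the letters searched for, which were GCAAC (an X1-box core), TGATGC or TGACGT (forms of an X2-box core) and GATTGG (the Y-box core, which is an inverted CCAAT), on the strand shown. On the other strand, and left in lower case, GATTGG also begins at position -35 of H2-Eb1, and TGACGT at position -72 of H2-Aa overlaps the marked one, counted back from the start. The 120 bases before the annotated start of H2-Aa on the minus strand (chr17:34287824-34287943) and of H2-Eb1 on the plus strand (chr17:34305747-34305866) read, 5′ to 3′:
H2-Aa: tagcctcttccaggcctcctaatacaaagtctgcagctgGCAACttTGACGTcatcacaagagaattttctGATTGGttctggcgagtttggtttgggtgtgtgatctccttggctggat
H2-Eb1: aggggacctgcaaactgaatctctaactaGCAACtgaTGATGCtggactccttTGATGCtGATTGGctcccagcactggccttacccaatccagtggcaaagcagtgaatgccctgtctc
The stretch from the X2-box letters to the Y box of H2-DMb1 (chr17:34153105-34153134, plus strand) and of H2-Ob (chr17:34238826-34238852, plus strand), the beta chain of the DO molecule, is shown for comparison:
H2-DMb1: TGATGCtaggctgattcactcagtGATTGG
H2-Ob: TGATGCaaagtcttcgctcttGATTGG
Between these boxes lay 19 bases in H2-Aa, 17 in H2-Eb1 (from its first TGATGC), 18 in H2-DMb1 and 15 in H2-Ob. TGATGC or TGACGT followed on the same strand by GATTGG, with 5 to 30 bases between, occurred in 92 of 32851 windows of 250 upstream bases (0.280%). GATTGG alone, on either strand, occurred in 14.6% of windows, TGATGC in 9.18%, TGACGT in 6.47% and GCAAC in 29.9%. The windows of H2-DMa and of H2-Oa, the other DO gene, held no such pair. A match in letters is a description of the sequence and not a measured binding site.

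In mean CPM over the 14 libraries, the order was H2-Aa (433), Cd74 (330), H2-Ab1 (266), H2-Eb1 (190), H2-DMb1 (63.0), H2-DMa (29.8) and Ciita (0.722). H2-Aa was above Cd74 in 11 of 14 libraries, Cd74 above H2-Ab1 in 12, H2-Ab1 above H2-Eb1 in 12, H2-Eb1 above H2-DMb1 in 13 and H2-DMa above Ciita in 14. H2-DMb1 was above H2-DMa in all 5 WD libraries but in 2 of the 5 batch 2 controls. Together the 7 genes took 0.196% to 0.264% of all counts in the WD libraries, 0.0560% to 0.130% in the batch 2 controls and 0.0236% to 0.180% in the batch 1 controls. The largest control share, that of control replicate 4, was below the smallest WD share.

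**Figure D1:**
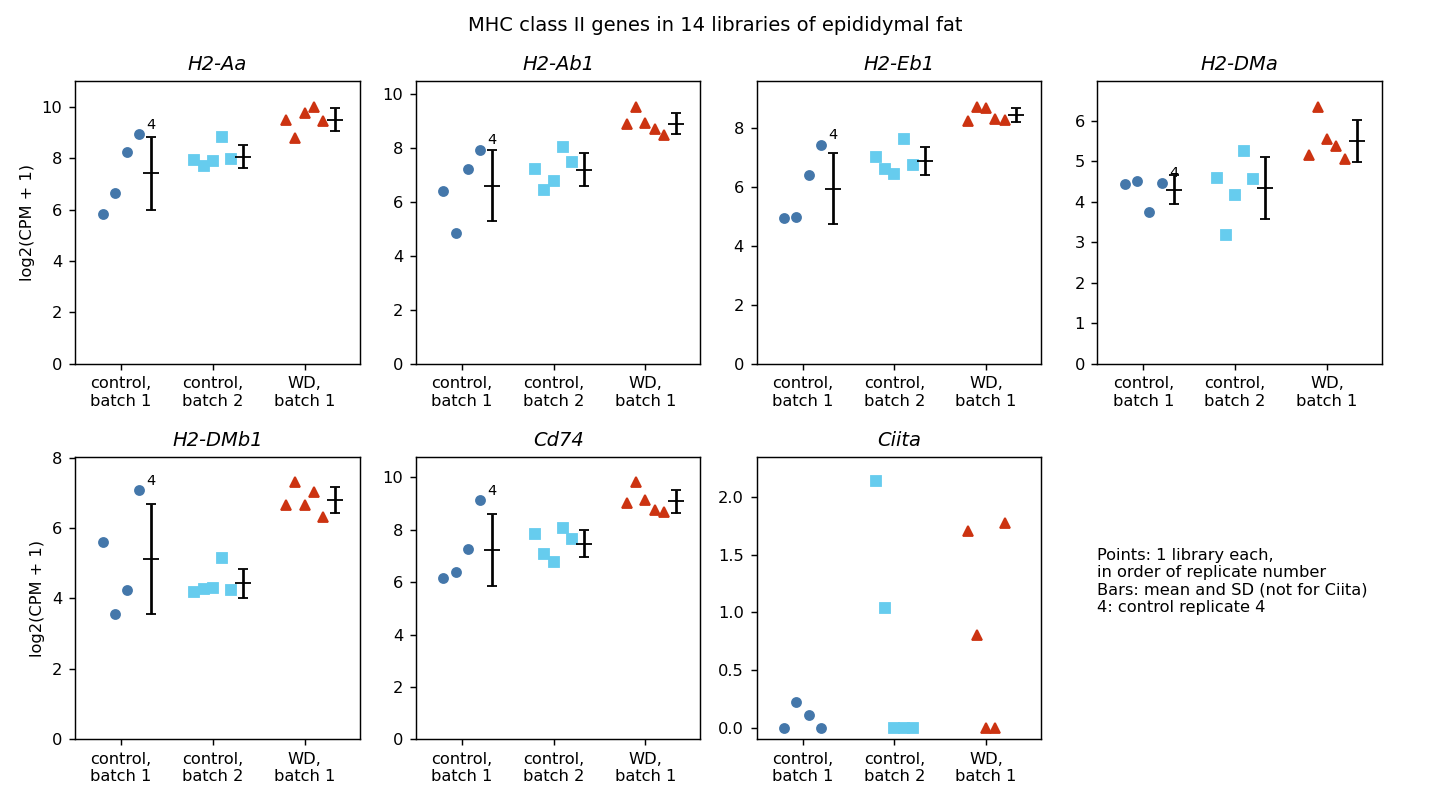
The plots show log2(CPM + 1) of the 7 class II genes, with 1 point per library, the libraries grouped by diet and batch, and bars for the mean and SD of each group (not drawn for Ciita). Every WD library lies above every control for H2-Ab1 and H2-Eb1, and control replicate 4 lies at the WD level for H2-DMb1 and Cd74.

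The genes of the classical A and E molecules were highest in the WD group. H2-Ab1, the beta chain of the A molecule (chr17:34263227-34269418, plus strand), was at 83.4, 27.9, 147 and 241 CPM in control replicates 1 to 4, at 474, 732, 480, 413 and 350 CPM in WD replicates 1 to 5, and at 148, 86.2, 109, 260 and 175 CPM in control replicates 5 to 9. All 5 WD libraries were above all 9 controls. Mean and SD were 490 ± 145 CPM in WD (n = 5), 125 ± 91.7 CPM in the controls of batch 1 (n = 4) and 156 ± 67.8 CPM in those of batch 2 (n = 5).

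H2-Eb1, the beta chain of the E molecule (chr17:34305867-34316674, plus strand), was at 29.9, 30.4, 83.9 and 170 CPM in control replicates 1 to 4, at 297, 418, 404, 310 and 305 CPM in WD replicates 1 to 5, and at 127, 95.1, 85.9, 197 and 105 CPM in control replicates 5 to 9. Here too the WD libraries did not overlap with either set of controls. Its mean was 347 ± 59.0 CPM (SD) in WD, 78.5 ± 65.9 CPM in the controls of batch 1 and 122 ± 44.6 CPM in those of batch 2. The antisense gene Gm20513 overlaps H2-Eb1, and the use of strand in counting is not stated, so their reads cannot be told apart. The same limit holds for H2-DMa, overlapped by CR974462.4 and Gm20493, and for Ciita, overlapped by Dexi, all on the opposite strand.

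H2-Aa, the alpha chain of the A molecule (chr17:34282751-34287771, minus strand), was at 55.2, 98.6, 299 and 484 CPM in control replicates 1 to 4, at 710, 444, 862, 1022 and 701 CPM in WD replicates 1 to 5, and at 243, 206, 235, 457 and 247 CPM in control replicates 5 to 9. The groups overlapped, because WD replicate 2 was below control replicates 4 and 8. H2-Aa averaged 748 ± 215 CPM (SD) in WD, 234 ± 198 CPM in the controls of batch 1 and 278 ± 102 CPM in those of batch 2. In WD replicate 2 the A chains were also uneven, with 0.606 H2-Aa counts for each H2-Ab1 count against 1.50 to 2.47 in the other 4 WD libraries. Control replicate 1 was the other library in which H2-Aa was below H2-Ab1, at a ratio of 0.662. Control replicate 2 held the highest ratio, at 3.54. The ratio of H2-Eb1 to H2-Ab1 varied less, from 0.571 to 0.873 in WD and from 0.359 to 1.10 over all 14 libraries.

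Cd74, the invariant chain (chr18:60803849-60812652, plus strand), was at 69.8, 81.8, 152 and 563 CPM in control replicates 1 to 4, at 525, 895, 564, 435 and 407 CPM in WD replicates 1 to 5, and at 226, 134, 109, 264 and 198 CPM in control replicates 5 to 9. Control replicate 4 was level with the WD group, and the other 8 controls were below all WD libraries. The mean of Cd74 was 565 ± 195 CPM (SD) in WD, 217 ± 234 CPM in the controls of batch 1 and 186 ± 64.3 CPM in those of batch 2. The ratio of Cd74 to H2-Ab1 was narrow in WD (1.05 to 1.22) and wide in the batch 1 controls (0.837 to 2.94).

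H2-DMa and H2-DMb1 encode the chains of the DM molecule, which loads the peptides. H2-DMb1 (chr17:34153191-34160229, plus strand) was at 47.8, 10.8, 18.1 and 133 CPM in control replicates 1 to 4, at 101, 156, 99.6, 130 and 79.2 CPM in WD replicates 1 to 5, and at 17.2, 18.4, 18.6, 34.2 and 17.9 CPM in control replicates 5 to 9. Control replicate 4 was above 4 of the 5 WD libraries, and the batch 2 controls were all below WD. On average H2-DMb1 was at 113 ± 30 CPM (SD) in WD, 52.5 ± 56.3 CPM in the batch 1 controls and 21.2 ± 7.24 CPM in the batch 2 controls.

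H2-DMa (chr17:34122832-34139101, plus strand) was at 20.7, 21.6, 12.5 and 21.1 CPM in control replicates 1 to 4, at 34.6, 80.3, 46.1, 40.4 and 32.1 CPM in WD replicates 1 to 5, and at 23, 8.01, 16.8, 36.9 and 22.6 CPM in control replicates 5 to 9. For H2-DMa the batch 1 groups did not overlap, whereas control replicate 8 of batch 2 was within the WD range. The ratio of H2-DMb1 to H2-DMa was 1.94 to 3.21 in WD, 0.745 to 2.30 in the batch 2 controls and 2.31, 0.498, 1.45 and 6.32 in control replicates 1 to 4. Of 3873 possible 75-base stretches of the H2-DMa transcripts, 289 also occur in transcripts of Brd2, and 254 of 1604 of H2-DMb1 occur in H2-DMb2. Since multiple alignments were counted, reads of these genes could be shared. No such stretch was found for H2-Aa, H2-Ab1, H2-Eb1 or Cd74.

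Ciita, the class II coactivator (chr16:10480072-10527640, plus strand), was hardly counted. It had 0, 2, 1 and 0 counts in control replicates 1 to 4, 32, 7, 0, 0 and 29 in WD replicates 1 to 5, and 48, 11, 0, 0 and 0 in control replicates 5 to 9. The highest value was that of a batch 2 control, and 2 of 5 WD libraries were at 0, where up to 3 counts (0.239 CPM in WD replicate 3 and 0.235 CPM in WD replicate 4) could have gone unseen by counting error alone. Ciita did not pass the filter on low counts in any comparison and was not tested. Its gene model in the count table ends 3424 bases before the RefSeq 3′ end of the gene, where the 3′ protocol places its reads, so these counts may not represent its transcript level.

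In the 4 batch 1 controls against the 5 WD mice, which share a batch, all 6 tested members were higher in WD on average, and none passed an FDR of 0.05. FDR here is the Benjamini-Hochberg adjusted p of edgeR's quasi-likelihood test over all 12157 genes tested, of which 0 (0%) passed, with 628 at an unadjusted p under 0.05, 114 called by DESeq2 and 0 by limma-voom. The log2 fold change was 2.14 ± 0.50 (SE) for H2-Eb1 (edgeR FDR = 0.434), 1.97 ± 0.52 for H2-Ab1 (edgeR FDR = 0.434) and 1.67 ± 0.56 for H2-Aa (edgeR FDR = 0.587). It was 1.38 ± 0.57 for Cd74 (edgeR FDR = 0.864), 1.29 ± 0.46 for H2-DMa (edgeR FDR = 0.659) and 1.10 ± 0.60 for H2-DMb1 (edgeR FDR = 1.00). The median of the 6 was 1.53, and that of all genes tested was 0.03. Unadjusted, 5 of the 6 members (not H2-DMb1) were higher at p under 0.05, against 3.35% of all genes, and 3 of the 6 (H2-Ab1, H2-Eb1 and H2-DMa) had no overlap between the groups, against 3.01%.

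These values depended on control replicate 4. Without it, the log2 fold change was 2.83 for H2-Eb1 (edgeR FDR = 0.0173) and 2.46 for Cd74 (edgeR FDR = 0.0301), and these 2 members passed. Over all genes, 48 of 12901 then passed, 42 of them higher. With control replicates 1 and 4 both left out, a choice made after the data were seen, H2-Eb1, Cd74 and H2-DMb1 passed, and the log2 fold change of H2-DMb1 was 2.97 (edgeR FDR = 0.00485). In that fit 108 of 13576 genes passed, 77 of them higher. Control replicate 4 had the most macrophage marker counts (17952) and the most class II counts (22227) of all controls. Its H2-DMa level, 21.1 CPM, was near those of control replicates 1 and 2 (20.7 and 21.6 CPM). The part of its macrophage genes in these values was not tested.

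Against all 9 controls, H2-Ab1 rose by 1.77 ± 0.37 and H2-Eb1 by 1.74 ± 0.36 on the log2 scale (edgeR FDR = 0.0278 for both). These were 2 of the 6 tested members, and 0.435% of 12653 genes rose in that comparison. They were also the 2 without overlap, against 1.09% of all genes. The other 4 did not pass, at 1.52 ± 0.38 for H2-Aa (edgeR FDR = 0.0898), 1.47 ± 0.40 for Cd74 (edgeR FDR = 0.144), 1.66 ± 0.49 for H2-DMb1 (edgeR FDR = 0.191) and 1.18 ± 0.36 for H2-DMa (edgeR FDR = 0.213). Neither call held with batch as a covariate, where the edgeR FDR was 0.142 for H2-Ab1 and 0.116 for H2-Eb1. Both were also lost when any 1 of control replicates 3, 5, 6, 7 and 9 or WD replicates 1 to 4 was left out, and that of H2-Eb1 was lost without WD replicate 5 (edgeR FDR = 0.0583). Without control replicate 4, 5 of the 6 members passed, and without control replicate 1, 3 did. Over all genes, 228 of 12605 rose without control replicate 4 and 124 of 12468 without control replicate 1, against 55 of 12653 with all libraries. The study's own list of higher genes, which holds all members but Ciita, was drawn from these samples and is not independent evidence of their direction.

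Against the 5 batch 2 controls, 5 of the 6 tested members rose, where 3.93% of 12070 genes did, and 4 of the 6 (not H2-Aa and H2-DMa) had no overlap, against 4.92% of all genes. The log2 fold change was 2.40 ± 0.27 for H2-DMb1 (edgeR FDR = 4.2e-05), 1.64 ± 0.28 for H2-Ab1 (edgeR FDR = 0.00154) and 1.59 ± 0.27 for Cd74 (edgeR FDR = 0.00139). It was 1.49 ± 0.23 for H2-Eb1 (edgeR FDR = 7.5e-04) and 1.42 ± 0.26 for H2-Aa (edgeR FDR = 0.00228). H2-DMa, at 1.11 ± 0.37, did not pass (edgeR FDR = 0.0996). The 3 comparisons share the WD libraries, and the last of them changes batch along with diet. Adipocyte markers fell in that comparison, 3 of 5, where 299 of all 12070 genes fell. The values were -1.40 ± 0.19 for Adipoq (edgeR FDR = 3.1e-04), -1.19 ± 0.18 for Plin1 (edgeR FDR = 6.6e-04) and -3.07 ± 0.28 for Cfd (edgeR FDR = 9.8e-06), while Lep rose by 1.29 ± 0.27 (edgeR FDR = 0.00611). The 5 adipocyte markers took 1.58% to 3.72% of counts in WD and 4.49% to 5.64% in the batch 2 controls, without overlap, and the part of this shift in the class II values was not tested. Within batch 1, the lowest and highest adipocyte values were -1.40 ± 0.63 for Cfd and 1.38 ± 0.47 for Lep, and neither passed. Without control replicates 1 and 4, 1 of the 5 adipocyte markers passed as lower there, as did 31 of 13576 genes. The list median then moved from 0.05 to -0.44.

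Between the control groups, none of the 6 tested members differed at an FDR of 0.05 or at an unadjusted p under 0.05. No gene of 12106 passed in edgeR (0%), with 895 (7.39%) at an unadjusted p under 0.05 and 111 called by DESeq2. The batch 2 minus batch 1 log2 difference was 0.63 ± 0.50 for H2-Eb1, 0.31 ± 0.52 for H2-Ab1, 0.24 ± 0.53 for H2-Aa and 0.17 ± 0.53 for H2-DMa. It was -0.22 ± 0.56 for Cd74 and -1.31 ± 0.64 for H2-DMb1 (edgeR FDR = 0.705). For these last 2 genes the sign turned without control replicates 1 and 4, to 0.68 for Cd74 and 0.56 for H2-DMb1.

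**Figure D2:**
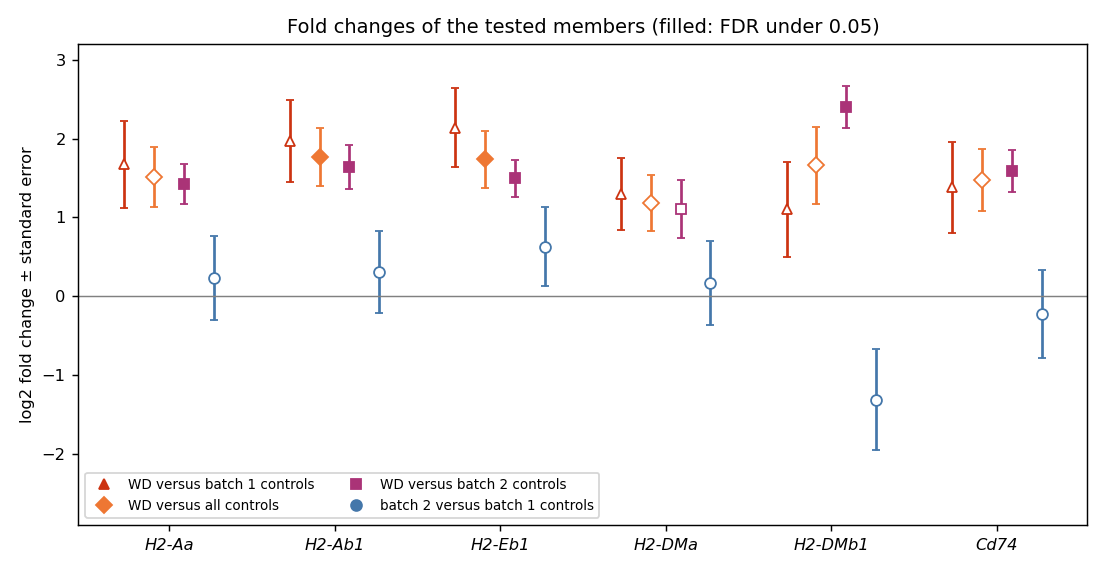
Log2 fold changes with standard errors are drawn for the 6 tested members in the 4 comparisons, and filled symbols mark an FDR under 0.05. All WD values lie between 1.10 and 2.40, filled symbols are seen only against all controls (2 members) and against the batch 2 controls (5 members), and the values between the control groups lie between -1.31 and 0.63.

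Of the 5 other class II chain genes, H2-Ea-ps and H2-DMb2 were at 0 in all 14 libraries. The table's gene models end 260 bases (H2-Ea-ps) and 458 bases (H2-DMb2) before the RefSeq 3′ ends, so these zeros are no check of the transcripts. C57BL/6 mice are known to lack a working E alpha gene. H2-Eb2, another E beta chain, had 16 counts in WD replicate 1 and 111 in WD replicate 3, and 0 elsewhere. H2-Oa and H2-Ob encode the DO molecule, which restrains DM and is known from B cells. H2-Ob had 34, 16 and 288 counts in WD replicates 1 to 3, 33, 54 and 1 in control replicates 5, 8 and 9, and 0 in the other 8 libraries. H2-Oa had 8, 26, 68 and 191 counts in WD replicates 1 to 4, 10 and 35 in control replicates 6 and 9, and 0 elsewhere. The table's model of H2-Ob ends where that of RefSeq does, and the GENCODE model runs 8506 bases further. Neither DO gene passed the test against all controls, at 3.23 ± 1.78 on the log2 scale for H2-Oa (edgeR FDR = 0.777) and 2.76 ± 1.83 for H2-Ob (edgeR FDR = 0.883).

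WD replicate 3, the library with the most H2-Eb2 and H2-Ob, also had the most B cell marker counts, at 1214 against 0 to 114 in the other 13 libraries. H2-Oa went another way. It was highest in WD replicate 4, at 191 counts against 68, where H2-Ob was at 0 and B cell markers summed to 113. Of the 6 B cell markers in the table, WD replicate 3 held 593 counts of Ms4a1, 398 of Cd79b and 149 of Cd79a, and Pax5 and Blk were at 0 in every library. The part of B cells in the class II counts of that library was not tested. Its H2-Ab1, H2-Eb1 and Cd74 levels lay within the range of the other WD libraries. Summed over the members, its class II counts (33174) and their share of all counts (0.264%) were the highest of all libraries. Dendritic cell markers were low throughout, at 0 to 252 counts summed over 7 genes per library. Against the batch 2 controls, 5 of them were tested, 3 were lower in WD and none passed. Their log2 fold changes there ran from -1.13 ± 1.83 (Cd209a) to 1.69 ± 1.73 (Batf3). Within batch 1 no marker of these cells passed, with log2 fold changes from 2.98 ± 2.14 (Cd79a) to 4.82 ± 2.15 (Ms4a1) for B cells, from 0.94 ± 2.05 (Batf3) to 4.43 ± 1.97 (Xcr1) for dendritic cells, and 1.06 ± 2.12 for Cd3d, the 1 T cell marker tested. Mesothelium markers ran from -2.43 ± 1.78 (Krt19) to 1.79 ± 2.15 (Msln), and Adam7, the 1 epididymis gene tested, was at -10.18 ± 3.08 and at -1.24 ± 2.41 without control replicates 1 and 4, with none passing.

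Among 16 regulators of class II transcription and interferon-gamma signalling, 14 did not pass in any comparison. Irf8 and Spi1, factors of the macrophage and B cell lineages, were the 2 that rose against the batch 2 controls, at 2.15 ± 0.35 and 2.23 ± 0.31 on the log2 scale (edgeR FDR = 0.00118 and 2.7e-04). Spi1 also rose against all controls, at 2.02 ± 0.44 (edgeR FDR = 0.0418), and reached 1.83 ± 0.63 against the batch 1 controls (edgeR FDR = 0.610). The all-controls call of Spi1 was lost with batch as a covariate (1.80 ± 0.58, edgeR FDR = 0.302). Spi1 had 34, 443, 96 and 535 counts in control replicates 1 to 4, 628 to 1321 in WD and 102 to 263 in the batch 2 controls, without overlap of WD and controls. Irf8 had 254, 7, 77 and 0 counts in control replicates 1 to 4, 356 to 798 in WD and 45 to 202 in the batch 2 controls. Control replicate 4, the library without an Irf8 count, had the fewest detected genes (7999). It also had 0 counts of Nfyb, which was at 337 to 805 elsewhere. The part of this low detection in its Irf8 value was not tested. Irf8 had the highest and Irf4 the lowest fold change of the list within batch 1, at 2.38 ± 1.20 and -2.0 ± 1.35, both with an edgeR FDR of 1.00. Rfx5, an X-box binding subunit, was at 0.50 ± 1.13 within batch 1 and -0.82 ± 0.59 against batch 2 (edgeR FDR = 0.561). The list median was 0.27 within batch 1, beside 0.03 for all genes. Without control replicates 1 and 4 still no regulator passed within batch 1, with Irf8 at 3.68 ± 0.81 (edgeR FDR = 0.0570) and Spi1 at 1.79 ± 0.55 (edgeR FDR = 0.208).

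The 7 lysosomal processing genes all had a positive fold change against each set of controls. None passed within batch 1 (edgeR), where 4 had an unadjusted p under 0.05, 2 passed against all controls and 7 against the batch 2 controls. Their median log2 fold change within batch 1 was 0.91. Ctss, the protease of the last step of invariant chain trimming, had 1201, 1571, 2244 and 11877 counts in control replicates 1 to 4, 7673 to 19103 in WD and 793 to 2758 in the batch 2 controls. Control replicate 4 was again level with WD. The log2 fold change of Ctss was 1.48 ± 0.58 within batch 1 (edgeR FDR = 0.808) and 2.95 ± 0.32 against batch 2 (edgeR FDR = 3.4e-05). Without control replicates 1 and 4 it was 2.53 ± 0.40 within batch 1 (edgeR FDR = 0.00889), and Ctss was then the 1 gene of the list that passed, with a list median of 1.39. Ctsd and Ctsz, further lysosomal proteases, were the 2 that rose against all controls, at 1.46 ± 0.26 and 1.14 ± 0.20 (edgeR FDR = 0.00973 for both). Both calls were lost with batch as a covariate (edgeR FDR = 0.116 for Ctsd and 0.108 for Ctsz). Ctsd had the highest value of the list within batch 1 (1.55 ± 0.41, edgeR FDR = 0.434). Lgmn, which starts invariant chain cleavage, had the lowest, at 0.33 ± 0.51 (edgeR FDR = 1.00), and rose by 2.03 ± 0.42 against batch 2 (edgeR FDR = 0.0064). Ifi30, the lysosomal thiol reductase, was at 0.91 ± 0.52 (edgeR FDR = 1.00) and 2.30 ± 0.39 (edgeR FDR = 0.00149).

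Of 3 turnover genes, March1, the ubiquitin ligase that removes class II from the surface, and Cd83, which opposes it, rose against the batch 2 controls, at 1.36 ± 0.33 (edgeR FDR = 0.0189) and 2.60 ± 0.54 (edgeR FDR = 0.00618). Within batch 1 they were at 1.03 ± 1.04 (edgeR FDR = 1.00) and 3.87 ± 1.40 (edgeR FDR = 0.677), where Cd83 had 0, 0, 24 and 76 counts in control replicates 1 to 4 and 138 to 627 in WD. March8, a related ligase, was the lowest of the list at -0.63 ± 0.43 (edgeR FDR = 1.00). Of the 3 costimulatory genes, Cd86 alone was tested within batch 1, at 1.67 ± 1.57 (edgeR FDR = 1.00), and it reached 1.72 ± 0.59 against batch 2 (edgeR FDR = 0.110). Cd80 had at most 10 counts in any library. Without control replicates 1 and 4, no turnover or costimulation gene passed within batch 1, and Cd83 was at 4.78 ± 1.20 (edgeR FDR = 0.105).

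**Figure D3:**
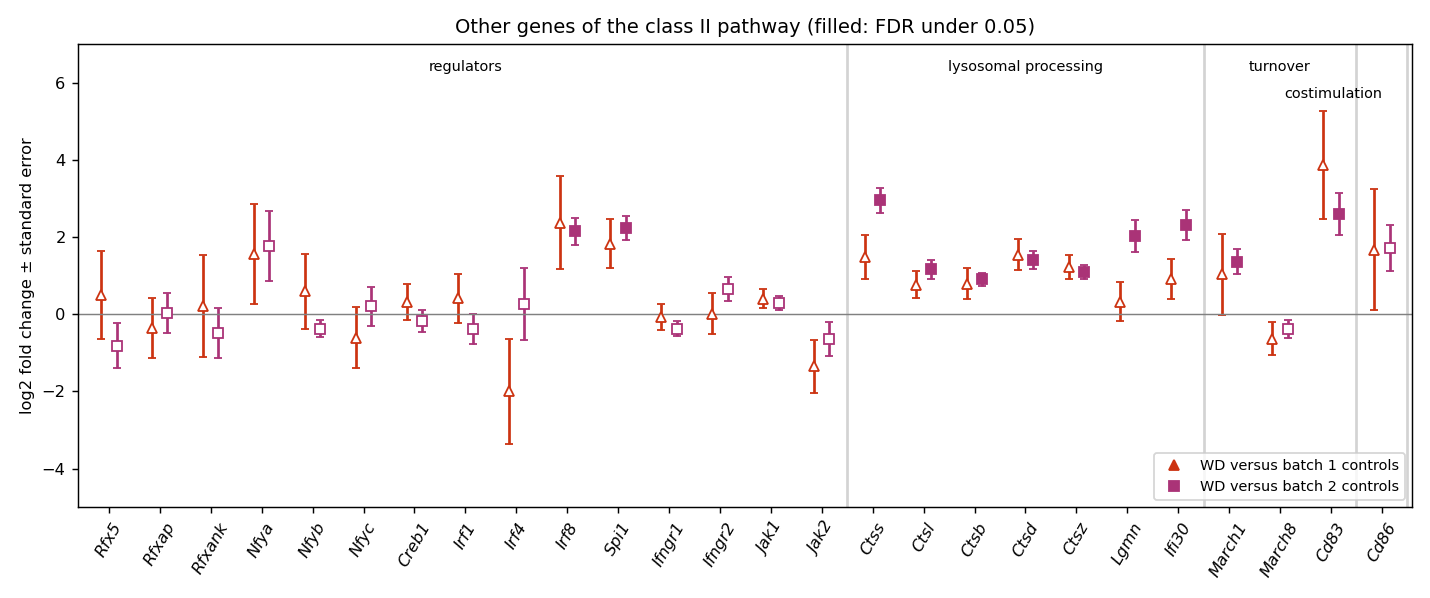
Log2 fold changes with standard errors are drawn for 15 of the 16 regulators and for the lysosomal processing, turnover and costimulation genes tested within batch 1 (triangles), beside the values against the batch 2 controls (squares), and filled symbols mark an FDR under 0.05. Filled symbols are seen for Irf8, Spi1, all 7 processing genes, March1 and Cd83, in each case against the batch 2 controls.

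Macrophage markers were also higher in WD on average. All 7 tested markers of 8 had a positive fold change against each set of controls, with 0 passing within batch 1 (edgeR, 4 at an unadjusted p under 0.05), 3 against all controls and 7 against the batch 2 controls. With batch as a covariate, none of the 3 held (edgeR FDR = 0.163 for Adgre1, 0.264 for Csf1r and 0.257 for Itgax). Without control replicates 1 and 4, 4 passed within batch 1, namely Adgre1, Csf1r, Itgax and Trem2. The lowest and highest values within batch 1 were 0.27 ± 0.46 for Mrc1 and 2.54 ± 0.61 for Itgax, and Mertk was the marker not tested. Summed over the 8 markers, the counts were 14420 to 24732 in WD, 2036 to 6352 in the batch 2 controls, and 1255, 6390, 4365 and 17952 in control replicates 1 to 4. The 7 members had 1.23 to 1.77 counts for each macrophage marker count in WD and 1.86 to 3.22 in the batch 2 controls, so the ratio in WD was lower than in every batch 2 control. In the batch 1 controls it was 2.26, 0.509, 1.96 and 1.24, on both sides of the WD range. Control replicate 2 had few class II counts for its macrophage counts, with 0.413 H2-Ab1 counts for each count of Adgre1, against 1.19 to 6.44 in the other 13 libraries. What part of the class II difference goes with macrophage number was not tested.

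**Figure D4:**
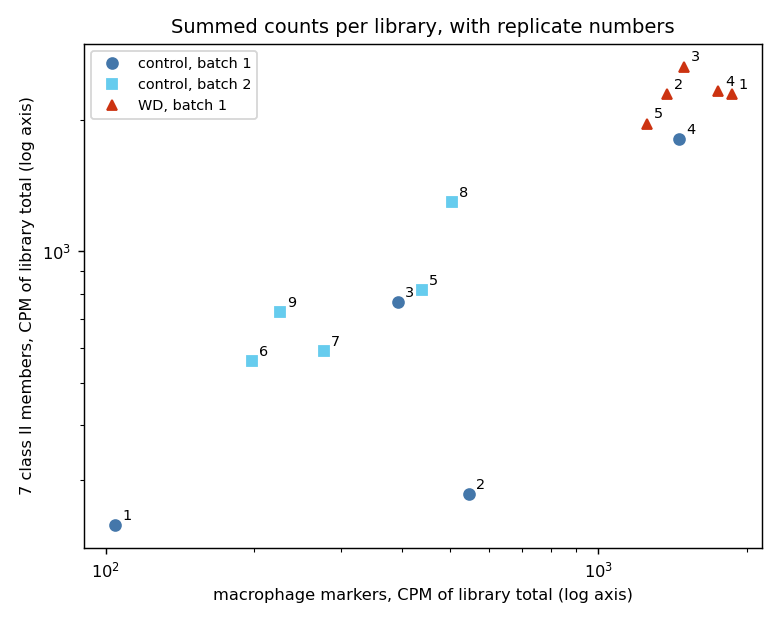
Summed CPM, of all counts of a library, of the 7 class II members are plotted against those of 8 macrophage markers for the 14 libraries, on log axes, with replicate numbers beside the points. The 5 WD libraries and control replicate 4 lie together at the upper right, and control replicate 2 lies below the other libraries of like macrophage level.

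The genes most like the class II genes in pattern were ranked by the SD, over 14 libraries, of their log2 ratio to the mean of H2-Aa, H2-Ab1, H2-Eb1 and Cd74. That mean had itself an SD of 1.16 across the libraries. Among 7973 non-member genes with at least 10 CPM on average, the lowest SDs were those of Laptm5 (0.25), S100a4 (0.32), Dnmt3a (0.47), Ptprc (0.48) and Trim30a (0.49). The 4 class II genes were at 0.18 to 0.40 from their own mean, of which each is a part. Laptm5, a lysosomal membrane protein of blood cells, was at 127 to 218 CPM in WD, 20.3 to 118 CPM in the batch 1 controls and 36.8 to 72.1 CPM in the batch 2 controls. S100a4, a calcium-binding protein, was at 217 to 384, 29 to 188 and 78.5 to 165 CPM in the same order of groups. For both genes the WD libraries were above all 9 controls, as in 1.09% of the 12653 genes tested. Ptprc encodes CD45, the surface phosphatase of all white blood cells, and was at 72.0 to 207, 14 to 109 and 36.8 to 50.9 CPM. Dnmt3a, a DNA methyltransferase, was at 69.6 to 95.4, 8.84 to 96.2 and 25.8 to 37.2 CPM, and Trim30a at 36.9 to 63.5, 8.10 to 30.3 and 9.82 to 30.7 CPM. Ptprc and Dnmt3a overlapped between WD and the batch 1 controls, and Trim30a did not overlap with either set. These genes were picked for likeness to the class II genes over the same libraries, so their separation by group is no separate evidence. Csf1r ranked 14 and Adgre1 131, whereas Cd68 ranked 3902, beside a median SD of 1.39 over all ranked genes, and all 14 libraries with their shared normalization entered each SD. This SD also grows where a gene changes in the same direction by more than the class II genes. Cd68 was at 167 to 445 CPM in WD, 15.2 to 328 CPM in the batch 1 controls and 9.82 to 36.8 CPM in the batch 2 controls. Its rank therefore does not mean a different direction. Without control replicates 1 and 4, Laptm5, S100a4 and Dnmt3a stayed at ranks 1 to 3, Ptprc ranked 6 and Trim30a 13, and Csf1r, Adgre1 and Cd68 ranked 69, 502 and 5835.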

How the data were processed

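Counts of QuantSeq 3′ mRNA libraries (single-end, 75 bases) were analysed. After Bowtie2 alignment, the authors counted both unique and multiply aligned reads on each gene (Bedtools), and deposited these counts unnormalized. mm10 is named in the submitters' processing notes, without tool versions. The deposited log2 values, made by the authors from TMM-scaled CPM plus 1 (edgeR), were used only to check the recomputed values.

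The 7 members and all gene lists were chosen with earlier results of these data known. Named genes were the members, the other chains, Irf8, Spi1, Rfx5, Ctss, Ifi30, Lgmn, March1 and Cd86, the lowest and highest fold of each list within batch 1 and the 5 genes most like the members. Other genes were named after their values were seen. A gene that the rule covers and a B cell marker are not reported here. List genes were also refitted without control replicates 1 and 4, a choice made after the data were seen. The main test was edgeR 4.0.16 (R 4.3.3) quasi-likelihood with TMM, the edgeR low-count filter and Benjamini-Hochberg adjustment at 0.05, without covariates, on the libraries compared, and it was tested on simulated data. Its SE was not a model output but the absolute log2 fold change divided by the square root of the test's F statistic. Alternatives used DESeq2 1.42.0, limma 3.58.1 (voom), other scaling factors and filters, a batch covariate, a replicate block and each library left out. Samples were labelled as separate mice. Molecular identifiers are not mentioned, so depth (10278970 to 13712254 counts per library) and the floor of 3 counts cover counting error only. Promoters came from RefSeq on GRCm38.p6, and annotated 3′ ends from RefSeq and GENCODE on the same build. Same-numbered control and WD libraries did not deviate together (correlations -0.02 to 0.08).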

Additional observations from a re-analysis of the deposited data

Results flagged for a closer look

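In 3 of 21 gene and group combinations, 1 library lay far from the rest of its group, where about 1 in 20 (1.05 of 21) would do so by chance. H2-Aa was highest in control replicate 8 of batch 2, at 8.84 on the log2(CPM + 1) scale against 7.69 to 7.96 in the other 4 libraries. H2-DMb1 was highest in the same library, at 5.14 against 4.18 to 4.30. H2-DMa was lowest in control replicate 3 of batch 1, at 3.76 against 4.44 to 4.50 in the other 3.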

How the results depend on the processing

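Within batch 1, the number of members passing was 0 in edgeR, 2 with DESeq2 (H2-Ab1 and H2-Eb1), 0 to 2 with 1 library left out, and 3 with control replicates 1 and 4 both left out. Over all genes, 0 passed in edgeR, 114 with DESeq2, 0 to 48 with 1 library left out, and 108 without control replicates 1 and 4. Against all controls the number of members passing was 2 in edgeR, 4 with DESeq2, 5 with limma-voom, 0 with the replicate block, 0 with batch as a covariate, 0 to 5 with 1 library left out and 5 without control replicates 1 and 4. Over all genes it was 67, 236 with DESeq2, 223 with limma-voom, 0 with the replicate block and 1 with batch as a covariate. It was 28 to 289 with 1 library left out and 619 without control replicates 1 and 4. Against the batch 2 controls the number of members passing was 5, 6 with DESeq2 and 5 to 6 with 1 library left out. Over all genes it was 773, 1144 with DESeq2 and 565 to 977 with 1 library left out. The cause of these differences was not tested. Over all alternatives, members' log2 fold changes were 0.73 to 2.97 within batch 1, 0.90 to 2.54 against all controls and 0.82 to 2.63 against batch 2, so none changed direction. Between the control groups, differences with 1 library left out spanned 0: H2-Aa -0.093 to 0.89 (-0.027 and -0.016 without control replicates 2 and 8), H2-Ab1 -0.024 to 0.88, H2-DMa -0.12 to 0.38 and Cd74 -0.52 to 0.90. Cd74 was at 0.22 with limma-voom, and without control replicates 1 and 4 it was at 0.68 and H2-DMb1 at 0.56. Limma-voom moved the median of all genes within batch 1 from 0.03 to 0.42, and the block moved it to 0.29. The replicate numbers do not pair the mice, and the block changed no other call. The batch 2 controls share fewer than 2 replicate numbers with another group. No block was therefore fitted against them alone or between the control groups. In the block fit against all controls, control replicates 6 to 9 had no WD library of the same number. They added nothing to its diet estimate, and control replicate 5 shared a block with WD replicate 5 of the other batch. That fit is therefore no test against the full set of controls.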
